A study of Mus musculus with 36 samples.

Results

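Ductal epithelium of fetal mammary glands that lacked the estrogen receptor α (ERα) was compared with that of wild type glands, both after exposure to vehicle alone. The comparison rests on 6 of the 36 arrays of the series, 3 labelled ERKO and 3 labelled wild type, chosen by their labels for genotype, compartment and exposure. The ERα(−/−) fetuses carried the null alleles in every cell, and they and the ERα(+/+) fetuses came from matings of heterozygous C57BL/6 mice. All were female. Their dams carried osmotic pumps with the dimethylsulfoxide vehicle from E8 until E19, when the fourth inguinal glands were taken. The ducts of 1 gland per fetus were captured by laser from stained frozen sections and pooled as 1 sample, with fetuses from 3 independent litters in each group and 1 fetus of each genotype taken from a litter. The RNA was amplified and hybridized to Affymetrix arrays for the mouse, and the unit of measurement is the probe set, a group of short probes for a transcript. The glands of BPA-exposed dams (250 ng/kg/day) and of dams exposed to the synthetic estrogen EE2 (10 ng/kg/day), and the peri-ductal stroma of the vehicle glands, served here only for comparison.

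ERα is a nuclear receptor that, once it has bound estrogen, attaches to estrogen response elements in DNA and recruits coactivators or corepressors. In the adult gland it is made by a part of the luminal cells, which pass the estrogen signal on to their neighbours through secreted factors such as ligands of the ERBB receptors. Before birth the duct grows under signals exchanged with the mesenchyme, and a small ductal tree forms in mice without ERα, while growth at puberty needs the receptor.

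The captured tissue bore the genes of mammary epithelium in both genotypes, and 2 of the ERα(+/+) arrays stood apart from the others. Krt8, a keratin of simple epithelia, had signal intensities of 1910, 2663 and 1940 on the ERα(+/+) arrays of replicates 1 to 3 and of 1288, 2929 and 4223 on the ERα(−/−) arrays. Epcam, an epithelial adhesion protein, had 5286, 5261 and 2711 against 3473, 4748 and 4916. The summed signal of 40 epithelial markers was 35290 ± 4053 in ERα(+/+) and 35670 ± 11590 in ERα(−/−) epithelium (SD, n = 3; exact permutation test, two-sided, p = 0.9, where 3 arrays against 3 cannot give less than 0.1). The genotypes therefore overlapped in epithelial content. Replicate 2 of ERα(+/+) was dim, with a median signal of 10.9, while the other 5 arrays had medians from 21.2 to 42.8. Its log2 values correlated with those of the others at 0.725 to 0.749, and pairs of the other arrays at 0.789 to 0.827, across probe sets. Replicate 3 of ERα(+/+) carried genes of cornified skin and of fat. Its 21 markers of keratinised epidermis summed to 16050, and those of the other 5 arrays to between 159 and 437. Krt10, a keratin of the upper epidermis, had 5175 there and 2.1 to 119 elsewhere. The 17 adipocyte markers summed to 54760 on that array, to 5956 and 5505 on the other ERα(+/+) arrays and to 14100, 22320 and 22960 on the ERα(−/−) arrays. Its sums were also the highest of the 6 arrays for fibroblast (29 genes), endothelial (21), leukocyte (26), erythroid (10) and smooth muscle (14) markers. Skeletal muscle markers (25) summed to 3134 on replicate 1 of ERα(+/+) and 2841 on replicate 1 of ERα(−/−), and to between 224 and 816 on the others. The 12 Schwann cell and nerve markers summed to between 2150 and 4811. None of the markers of these lists was at a signal of 0 on any of the 6 arrays. The ratios of the 3′ to the 5′ signal of the Gapdh control probe sets were 10.1 ± 1.30 in ERα(+/+) and 11.2 ± 2.27 in ERα(−/−) epithelium, and those of b-actin were 0.913 ± 0.113 and 1.03 ± 0.118 (SD, n = 3; exact permutation p of 0.6 and 0.4). On the 6 arrays the Gapdh ratios ranged from 8.56 to 12.6, above the limit that the paper states for its housekeeping genes. The b-actin ratios were within it. The paper takes ratios within that limit as support for intact RNA and does not name the genes. The part of the differences between arrays in the results was not tested.

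**Figure D1:**
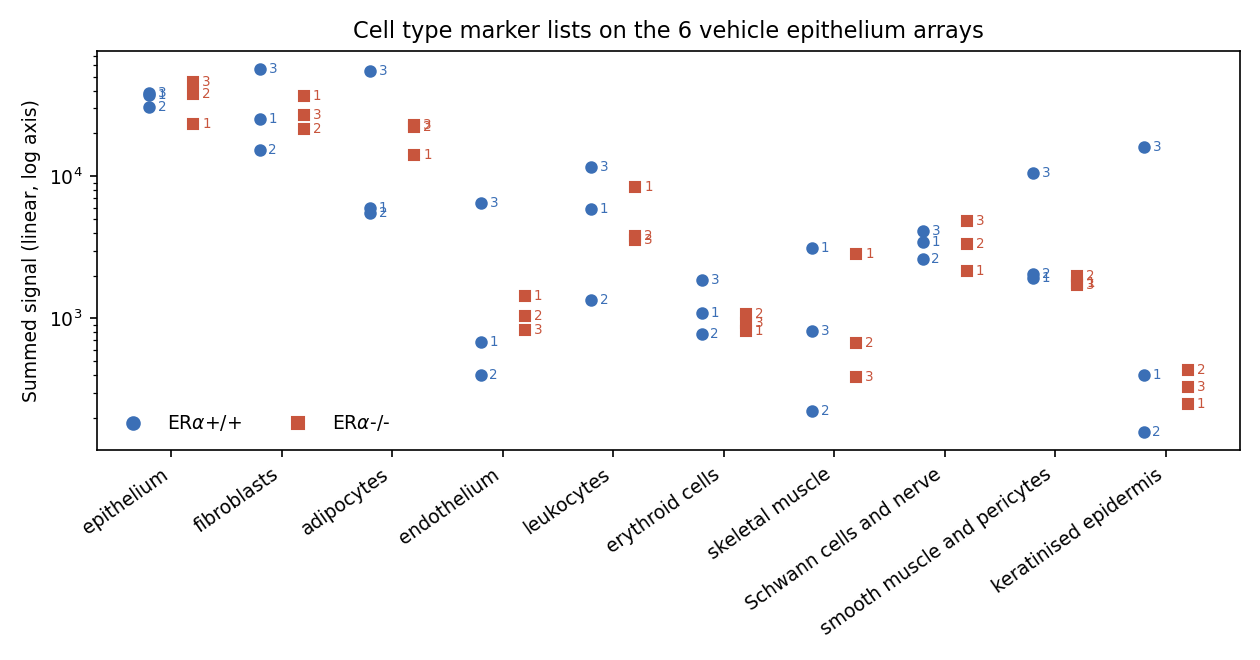
Summed signal of cell type marker lists (linear intensity on a log axis) on the 6 vehicle epithelium arrays. Each point is 1 array, numbered by replicate, with ERα(+/+) as circles and ERα(−/−) as squares. Replicate 3 of ERα(+/+) lies far above the others for keratinised epidermis (16050 against at most 437) and highest for adipocytes.

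No gene was found to differ between ERα(−/−) and ERα(+/+) epithelium once the number of probe sets was taken into account. Of 45101 probe sets, 0 had an adjusted p under 0.05 in limma (0%), and the smallest adjusted p was 0.0935. It belonged to probe set 1440726_at, which has no gene symbol in the annotation. Its signal was 176, 282 and 168 in ERα(+/+) and 12.4, 5.7 and 11 in ERα(−/−) epithelium. The groups stood well apart there, with a log2 difference of −4.46 (standard error 0.61). Before adjustment, 1733 probe sets were higher in ERα(−/−) at p under 0.05 (3.84% of all) and 923 were lower (2.05%), together 5.89%. The 3 ERα(−/−) arrays lay above all 3 ERα(+/+) arrays for 1850 probe sets (4.1%) and below them for 1184 (2.63%). At the brightest probe set of each of 18194 genes, these shares were 3.71% higher and 1.77% lower before adjustment, and 3.99% above and 2.56% below without overlap. A separation of 3 arrays from 3 has a p of 0.1 in the exact permutation test (two-sided). Lack of overlap is therefore given as a description and does not mark a gene by itself.

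The excess of higher over lower signals followed single arrays. The median log2 difference over all probe sets was 0.175, and 65.2% of the probe sets with an unadjusted p under 0.05 were higher in ERα(−/−). Without the dim replicate 2 of ERα(+/+) this share was 29.1% (888 higher, 2165 lower), and the median difference was −0.251. After quantile normalization it was 50%, with 1646 higher and 1649 lower, and without replicate 2 of ERα(−/−) it was 42.3%. Differences of single genes are therefore to be read beside the median of all genes. Leaving out replicate 3 of ERα(+/+) gave 10 probe sets with an adjusted p under 0.05, leaving out its replicate 1 gave 5, and leaving out replicate 3 of ERα(−/−) gave 1. Of the 10 probe sets, 1440726_at was the only one lower in ERα(−/−), and the named others were Cyp1b1, Fxyd6, Vegfd, Mapre2, Cthrc1, Dnaja2 and Prorsd1. Cthrc1, a secreted matrix protein, had 257 on the array left out, 1.2 and 0.9 on the other ERα(+/+) arrays and 64.6, 91.0 and 75.8 on the ERα(−/−) arrays. Vegfd, a growth factor of lymphatic vessels, had 201 on that array, 0.6 and 4.5 on the other ERα(+/+) arrays and 98.8, 221 and 121 on the ERα(−/−) arrays. The 5 probe sets were those of Rcbtb2, 9430038I01Rik, Faxc and Cd244a and 1 without a symbol, 1458917_at, all higher in ERα(−/−). The single one was that of Gm34344, lower in ERα(−/−). Genes named here for such counts were chosen after their values were seen.

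The receptor removed in the knockout was itself barely above background in the epithelium. The first Esr1 probe set (1435663_at) had signals of 17.9, 1.1 and 44.8 in ERα(+/+) and 13.3, 2.9 and 1.6 in ERα(−/−) epithelium. The second (1460591_at) had 29.7, 1.7 and 76.2 against 17.0, 1.6 and 7.0. The genotypes overlapped on both, with log2 differences of −1.28 (standard error 1.13, limma adjusted p = 0.925) and −1.45 (1.22, 0.92). Only the dim replicate 2 of ERα(+/+) was as low as the knockout arrays, and the highest signals, 44.8 and 76.2, came from replicate 3, the array with skin and fat genes. The differences were −2.84 and −3.05 without replicate 2 of ERα(+/+) and −0.17 and −0.31 without its replicate 3. With each array left out in turn they ranged from −2.84 to −0.17 and from −3.05 to −0.31. The third probe set (1421244_at) was at 3.3, 7.2 and 7.0 in ERα(+/+) and at 9.5, 11 and 11.2 in ERα(−/−) epithelium, a log2 difference of 0.94 (1.20, 0.949). In the stroma of the same glands 1435663_at was brighter, at 50.4, 201 and 397 in ERα(+/+) and 26.3, 34.6 and 37.6 in ERα(−/−). The genotypes did not overlap there, with a log2 difference of −2.29, which did not pass after adjustment. In the stroma 1460591_at was at 75.5, 11.9 and 261 against 29.6, 48.7 and 53.2, and 1421244_at at 11.3, 11.1 and 94.2 against 30.1, 22.0 and 7.0. The part of Esr1 that was deleted and the positions of the probes are not given in the sources used here, so a signal in a knockout array does not by itself go against its label.

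**Figure D2:**
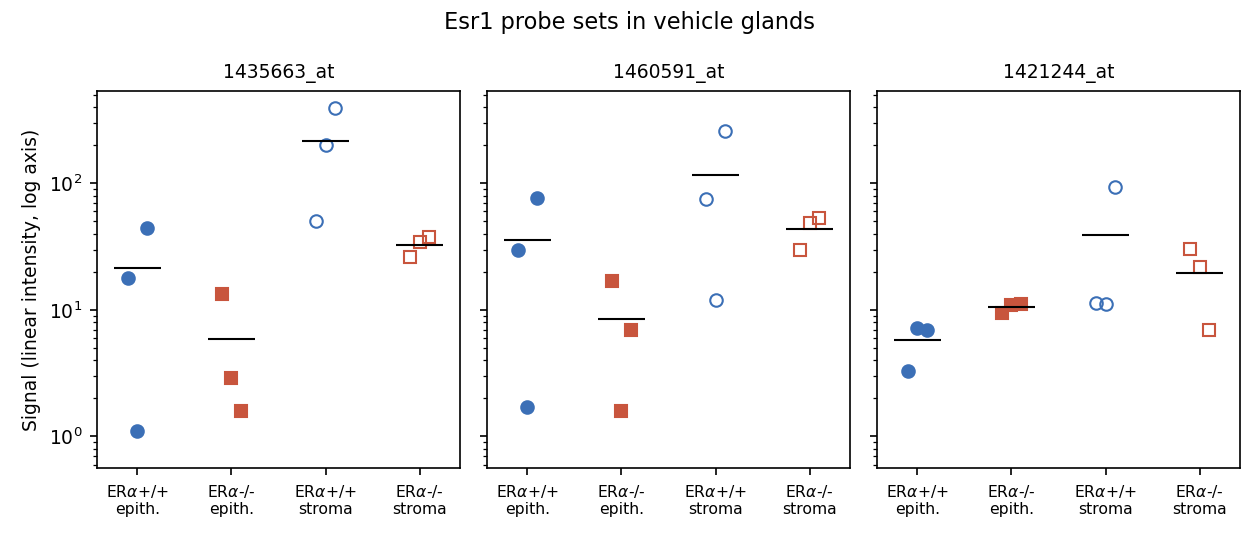
Signal of the 3 Esr1 probe sets (linear intensity on a log axis) in vehicle glands, with ERα(+/+) as circles and ERα(−/−) as squares, filled for epithelium and open for stroma. Points are arrays and lines are means (n = 3). Probe set 1435663_at separates the genotypes without overlap in the stroma (at least 50.4 against at most 37.6), and the epithelial signals lie below 80.

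Other receptors that bind estrogens or BPA were dim or alike in both genotypes. Of the 8 listed, 7 were measured, and at their brightest probe set none passed at p under 0.05 before adjustment. Esr2, the second nuclear estrogen receptor, had 22.0, 18.8 and 9.2 in ERα(+/+) and 19.8, 26.1 and 2.5 in ERα(−/−) epithelium. Gper1, a membrane receptor for estrogens, had 42.2, 79.2 and 223 against 86.0, 39.2 and 36.2. Esrrg, an orphan receptor that binds BPA, had 86.6, 0.5 and 62.4 against 3.2, 5.8 and 0.2, a log2 difference of −3.17 (standard error 1.86, limma adjusted p = 0.876), and of −5.57 without replicate 2 of ERα(+/+). All 3 overlapped between the genotypes. The glucocorticoid receptor gene Nr3c1, with means of 385 ± 148 and 583 ± 430 (SD, n = 3), and the thyroid hormone receptor gene Thra were the brightest. Thra had 269, 199 and 357 in ERα(+/+) and 483, 369 and 643 in ERα(−/−) epithelium, without overlap, but a log2 difference of 0.86 (0.62, 0.897), and its other 2 probe sets lay in the opposite direction. The thyroid receptor gene Thrb did not exceed 13.3 on any array.

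Genes that estrogen controls in other tissues showed no common direction between the genotypes. Of 33 measured estrogen targets, 2 were higher in ERα(−/−) at an unadjusted p under 0.05 and 0 lower, against 3.71% and 1.77% of all genes. Their median log2 difference was −0.03, beside 0.17 for all genes. The higher genes were Stc2, a secreted glycoprotein, and Ltf, the iron-binding milk protein lactoferrin. Stc2 had signals of 705, 78.6 and 152 in ERα(+/+) and 363, 848 and 1381 in ERα(−/−) epithelium, with overlap (log2 difference 1.89, standard error 0.74, limma adjusted p = 0.789). With an array left out its difference ranged from 1.20 to 2.78, and the unadjusted p was above 0.05 without replicate 2 or 3 of either genotype. Ltf was dim, at 3.3, 10.9 and 7.7 against 18.3, 44.3 and 17.9, without overlap (1.90), and passed before adjustment in 4 of the 6 fits with an array left out (1.41 without replicate 1 of ERα(+/+) and 1.47 without replicate 2 of ERα(−/−), which did not). The progesterone receptor gene Pgr, a classical ERα target, was well above background in both genotypes. Its brightest probe set had 320, 218 and 444 in ERα(+/+) and 60.2, 428 and 491 in ERα(−/−) epithelium. A single ERα(−/−) array was low and the groups overlapped, with a log2 difference of −0.43 (0.83, 0.974). A second Pgr probe set overlapped too, and the dimmest had 12.8, 0.9 and 1.7 against 125, 34.8 and 31.1 (4.25, 0.766). Greb1, which estrogen raises in breast cancer cells, did not exceed 49.6. Ccnd1 (cyclin D1) had 4142, 5230 and 3025 against 3200, 2697 and 3295, and Myc had 693, 574 and 789 against 701, 537 and 566. Both overlapped between the genotypes. Of 21 measured cofactors of the receptor, none passed at p under 0.05 before adjustment and the median difference was −0.05. Of the 21, 2 coactivators, Carm1 and Med1, were lower without overlap, when 2.56% of all genes were. Carm1, an arginine methyltransferase, had 917, 1902 and 527 in ERα(+/+) against 514, 329 and 441, and Med1, a Mediator subunit, had 476, 788 and 554 against 296, 350 and 324. Their log2 differences were −1.21 and −0.88 (limma adjusted p = 0.853 and 0.87). Of 6 other probe sets of Med1, 2 were also lower and the brightest was higher (0.32), while Carm1 had no other.

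Several genes of the basal lineage had lower signals in ERα(−/−) epithelium. Of 26 measured, 4 were lower in ERα(−/−) at an unadjusted p under 0.05 and 0 higher, all 4 without overlap, against 1.77% of all genes lower and 2.56% lower without overlap. None passed after adjustment. The median difference of the list was −0.35 beside 0.17 for all genes, and 9 of the 26 lay above 0. Trp63, the transcription factor that maintains basal cells of stratified epithelia, had signals of 363, 838 and 723 in ERα(+/+) and 213, 222 and 23.5 in ERα(−/−) epithelium (log2 difference −2.54, standard error 0.92, limma adjusted p = 0.777). Itgb4, the hemidesmosome integrin, had 388, 392 and 218 against 210, 26.3 and 78.0 (−2.09, 0.71, 0.752). Oxtr, the oxytocin receptor, had 292, 254 and 152 against 6.5, 133 and 142 (−2.18, 0.90, 0.82). Every ERα(−/−) array lay below every ERα(+/+) array for these genes, though for Itgb4 and Oxtr by a small margin. Cnn1 (calponin), a contractile gene of smooth muscle and myoepithelium, was dim, at 19, 17.8 and 102 against 4.3, 9.4 and 5.4. The keratins of basal cells did not follow. Krt14 had 655, 535 and 1133 against 633, 1133 and 1168, and Krt5 had 581, 59.3 and 1585 against 609, 305 and 258, both with overlap. Other probe sets went the other way for Trp63 (2 of 3, the brightest at 1.45) and Oxtr (1.30), while Itgb4 and Cnn1 had no other. None of the 4 kept an unadjusted p under 0.05 with every array left out in turn. Itgb4 lost it without replicate 2 of ERα(−/−), at −1.33, and Trp63 without replicate 3 of ERα(−/−), at −1.47. Oxtr lost it without replicate 1 of ERα(−/−), at −0.71, and without replicate 1 or 2 of ERα(+/+), at −1.99 and −2.09. Cnn1 lost it without replicate 3 of ERα(+/+), at −1.61, and without replicate 1 or 3 of ERα(−/−), at −2.19 and −2.36. In RNA of whole captured ducts, fewer basal cells and less of these RNAs in each cell cannot be told apart. Trp63, Itgb4 and basal keratins are also made by basal cells of skin. On replicate 3 of ERα(+/+), the array with epidermal genes, Krt5 and Krt14 were the highest and Itgb4 the lowest of the group, with Trp63 between the others, and the part of skin in these values was not tested. Relative to all genes the list's median was −0.52, and it was −0.48 without replicate 2 and −0.45 without replicate 3 of ERα(+/+). It was below 0 in 15 of 15 alternatives, from −0.76 to −0.39. So were 7 of the 28 lists in all, among them the estrogen targets, the cofactors, the bud, stress and smooth muscle genes and the neighbours of Esr1. The receptors, the smooth muscle markers and the markers of keratinised epidermis had lower medians than the basal list (−0.69, −0.53 and −0.96), and differences between lists were not tested. In the other comparisons of the genotypes the basal list's median was 0.12 after BPA, beside 0.27 for all genes, 0.58 after EE2 beside 0.50, and −0.33 in vehicle stroma beside 0.01.

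Luminal genes lay close to all genes. Of 23 measured, none passed at p under 0.05 before adjustment, and the median difference was 0.28. Krt18, the partner of Krt8, had 1899, 2224 and 1492 against 1434, 2723 and 2870. Gata3, a transcription factor of luminal cells, had 145, 4.5 and 65.3 against 46.1, 85.6 and 314. Foxa1, which opens chromatin for ERα, had 53.5, 8.3 and 108 against 10.2, 12.3 and 33.9. All 3 overlapped. Lmo4, a LIM domain regulator of luminal growth, was lower without overlap at 1360, 1981 and 1244 against 864, 874 and 612 (log2 difference −0.95, standard error 0.54, limma adjusted p = 0.869). Cited1, a cofactor of ERα, had 3.0, 1.0 and 0.5 against 94.8, 50.8 and 0.4 (3.44, 1.67, 0.855), so that 2 of the 3 ERα(−/−) arrays were high and the third was not. Of 19 measured genes of the prolactin pathway and milk, 2 were higher before adjustment, when 3.71% of all genes were. They were Ltf and the dim α-lactalbumin gene Lalba, which had 2.9, 2.3 and 0.9 against 11.8, 12.7 and 57.6. The casein gene Csn3 had 239, 247 and 75.1 against 71.7, 1186 and 546, with overlap.

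Signals that shape the mammary bud were mostly within the spread of the arrays. Of 43 measured, 1 was higher and 1 lower before adjustment, beside 3.71% and 1.77% of all genes, and the median difference was 0.03 beside 0.17. Gli1, a transcription factor and target of hedgehog signalling, had 5.6, 17.5 and 53.7 in ERα(+/+) and 3.3, 2.6 and 2.7 in ERα(−/−) epithelium (log2 difference −2.61, standard error 0.93, limma adjusted p = 0.772). Without replicate 3 of ERα(+/+) the difference was −1.80 and did not pass before adjustment. The ectodysplasin gene Eda had 0.6, 7.9 and 3.9 against 283, 15.3 and 9.9, with 1 array far above the others, and its brightest other probe set was lower in ERα(−/−) (−2.11). The difference of 3.73 was 2.22 without replicate 1 of ERα(−/−) and 2.66 without replicate 1 of ERα(+/+), and neither passed before adjustment. Both genes were dim in the higher group apart from that array. The bud markers Tbx3, at 766, 219 and 325 against 540, 500 and 1143, and Sostdc1, at 3804, 3096 and 4850 against 2966, 4964 and 6183, overlapped. Of 16 measured ERBB receptors and ligands, none passed before adjustment and the median difference was 0.06. Erbb3, the brightest of the receptors, had 1712, 1223 and 1016 against 817, 1544 and 1795. The neuregulin gene Nrg1, a ligand of Erbb3 made by mammary mesenchyme, had 87.2, 26.1 and 46.9 against 57.5, 154 and 140. The ligand gene Ereg was below 24 on all arrays, and lower in ERα(−/−) without overlap.

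Most of the genes with the smallest p, a separation of all arrays and at least a 2-fold difference were dim in 1 genotype. Whether they share a pathway was not tested. There were 355 genes above and 444 below without overlap and with a mean signal of at least 100 in the higher group. Of these, 269 and 282 had a log2 difference of at least 1. The genes that met the signal condition alone were not counted, so these counts have no share. Over all probe sets, without that condition, the order was the opposite, with 4.1% above and 2.63% below. The 15 genes with the smallest p in each direction are described. None passed (limma adjusted p from 0.119 to 0.585 among the higher and from 0.236 to 0.571 among the lower). That the arrays separate was a condition of the choice. In the lower genotype the mean signal was under 100 for 14 of the 15 higher and 13 of the 15 lower genes.

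Among the genes higher in ERα(−/−) epithelium, 9430038I01Rik had the smallest p, with 7.2, 0.5 and 5.4 in ERα(+/+) and 148, 62.1 and 114 in ERα(−/−) epithelium (log2 difference 5.24, standard error 0.82). Irs2, an adaptor of the insulin and IGF1 receptors, had 4.2, 2.3 and 2.1 against 125, 31.6 and 213 (5.11, 1.14). Both were near the floor of the arrays in the wild type. Mapre2, which binds the growing ends of microtubules, had 11.4, 4.4 and 83.5 against 362, 295 and 299 (4.30, 0.88). Spice1, a protein of centriole duplication, had 17.0, 0.8 and 78.2 against 247, 253 and 185 (4.47, 1.15). The ERα(−/−) arrays agreed closely for this pair of genes while the ERα(+/+) arrays spread widely. Rrp8, which acts in ribosomal RNA processing, was the only one with a mean above 100 in both genotypes, at 126, 26.3 and 233 against 865, 295 and 1093 (2.83, 0.76). Dnm2, the dynamin of endocytosis, had 39.2, 25.3 and 55.7 against 195, 105 and 165 (1.98, 0.52). Glo1, the glyoxalase that removes methylglyoxal, had 3.3, 0.3 and 21.0 against 379, 46.7 and 44.9 (5.07, 1.27). Its difference was 4.06 without the brightest ERα(−/−) array and 3.48 without replicate 2 of ERα(+/+). The log2 differences of 2310057M21Rik (3.96), Zc2hc1a (3.66), the zinc finger gene Zfp637 (2.73), Pdcd7 of the minor spliceosome (2.27), Cbwd1 (3.61), the noncoding Gm38604 (5.33), the nucleoporin gene Nupl2 (2.70) and Unc13b, which primes vesicles for release (3.32), made up the 15. Replicate 2 of ERα(+/+), the dim array, was the lowest of its group for 14 of these genes, and without it the differences ranged from 1.69 to 4.99. After quantile normalization they ranged from 1.62 to 5.17.

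Among the genes lower in ERα(−/−) epithelium, Cdkn2aip, which encodes a partner of the tumour suppressor ARF, had 320, 274 and 173 in ERα(+/+) and 17.6, 44.3 and 18.3 in ERα(−/−) epithelium (log2 difference −3.35, standard error 0.64). Trim37, a ubiquitin ligase, was the brightest, with 1041, 952 and 812 against 34.7, 313 and 207 (−2.83, 0.73). Pknox1, a homeobox partner of Hox proteins, had 170, 178 and 179 against 26.8, 57.8 and 11.5 (−2.75, 0.64). The ERα(+/+) arrays lay close together for Trim37 and Pknox1, the dim array included. Rbms2, an RNA-binding protein, had 425, 499 and 410 against 34.3, 142 and 45.5 (−2.87, 0.59). Rbm5, a splicing regulator, had 509, 755 and 548 against 110, 203 and 95.1 (−2.21, 0.52). Mbd1, which binds methylated CpG, had 518, 634 and 294 against 7.2, 134 and 23.0 (−4.03, 1.03). Rbm5 and Rbms2, unlike most of the genes, stayed above 30 on every array. Bcl2l11 (Bim), a BH3-only protein that starts apoptosis, had 82.7, 97.6 and 139 against 8.2, 25.8 and 5.4 (−3.31, 0.82). Foxj3, a forkhead transcription factor, had 98.4, 449 and 122 against 4.9, 1.0 and 32.9 (−5.01, 1.12). The others were Zfp825 (−3.30), the predicted gene Gm34344 (−4.45), Ppox of heme synthesis (−2.46), the acyl-CoA synthetase gene Acsm3 (−3.16), the chaperonin subunit gene Cct4 (−2.82), Tnrc6b of microRNA silencing (−2.21) and the nucleotidase gene Entpd5 (−3.34). The dim array was the highest of its group for 9 of the 15 and the lowest for 1, and without it the differences ranged from −4.33 to −2.04.

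**Figure D3:**
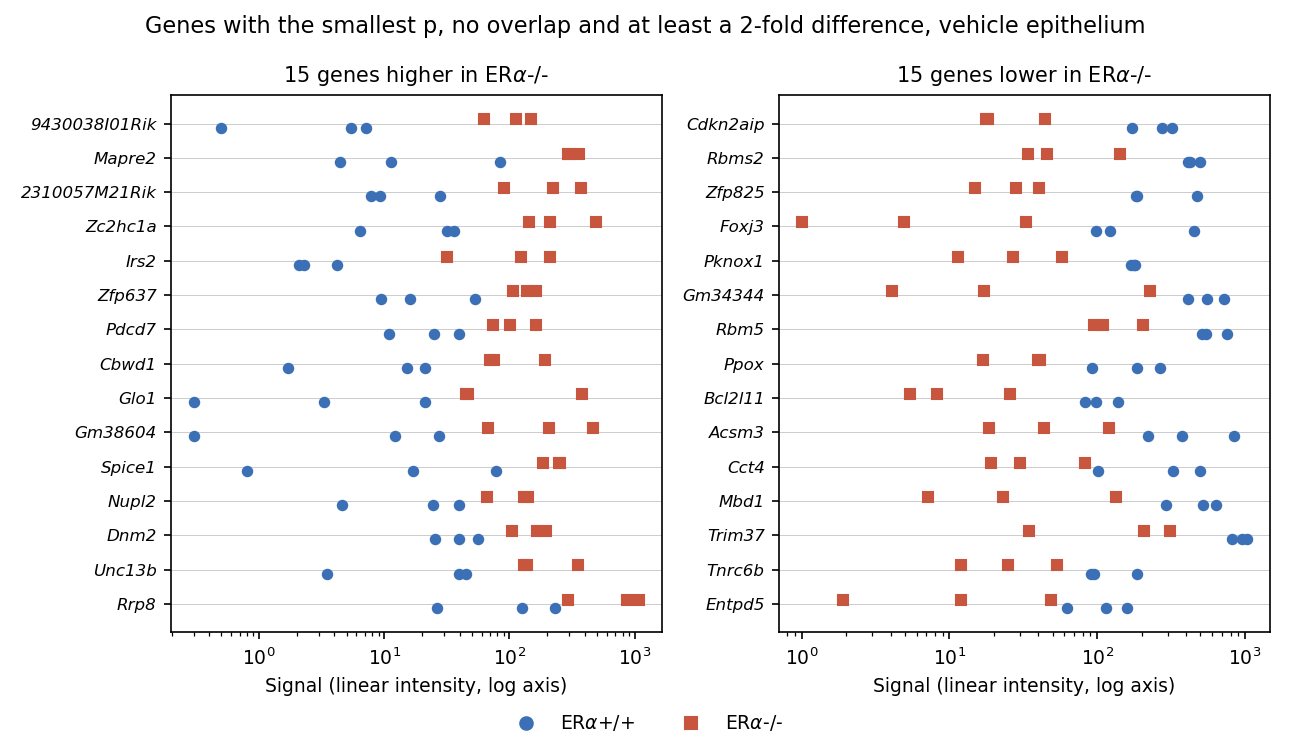
Signal of the 15 genes higher and the 15 genes lower in ERα(−/−) vehicle epithelium with the smallest p (linear intensity on a log axis), 1 point per array, with ERα(+/+) as circles and ERα(−/−) as squares. The arrays of the genotypes do not overlap for any gene, which was a condition of the choice, and the lower genotype has a mean under 100 for 27 of the 30.

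Other probe sets of the same genes bore out only some of these differences. The 15 higher genes had 24 other probe sets, of which 15 were also higher, as were 58.3% of all probe sets, and 3 of them at an unadjusted p under 0.05 (3.84% of all probe sets). The 15 lower genes had 39, of which 20 were also lower, as were 41.7% of all probe sets, and 4 of them at an unadjusted p under 0.05 (2.05% of all). Probe sets of a gene can share a target, and an ending such as x or s in their names marks probes that also match other sequences. For Mbd1 a second probe set had 758, 613 and 657 in ERα(+/+) and 255, 171 and 109 in ERα(−/−) epithelium, a log2 difference of −2.00 (limma adjusted p = 0.618). For Zfp825 a second had 188, 308 and 152 against 48.2, 45.5 and 26.3 (−2.42, adjusted p = 0.585). For Gm38604 a second had 21.2, 4.0 and 23.2 against 661, 73.5 and 222 (4.14, adjusted p = 0.76). The genotypes did not overlap on any of these 3. Spice1 (1.58), Glo1 (1.54), Trim37 (−1.69) and Entpd5 (−2.72) each had another probe set in the same direction at an unadjusted p under 0.05. The brightest other probe set often showed no such difference or lay in the opposite direction. That of Glo1 had means of 1749 and 1983 (log2 difference 0.12), that of Bcl2l11 1198 and 1263 (0.16), that of Rbm5 635 and 771 (0.27), that of Foxj3 362 and 384 (0.45) and that of Trim37 655 and 1400 (0.94). That of Cct4 had 2680 and 1709 (−0.63), and that of Rbms2 1025 and 450 (−0.97). Those of Zc2hc1a (1.81) and Dnm2 (1.10) also lay in the direction of the named probe set. Among those in the opposite direction, that of Cdkn2aip had 14.1 and 39.9 (1.40) and that of Tnrc6b 709 and 1049 (2.05). That of 2310057M21Rik had 268 and 110 (−0.70).

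The differences of these genes in vehicle epithelium were seldom met in glands of the other exposures. In BPA-exposed epithelium, 12 of the 15 higher genes were again higher in ERα(−/−), as were 69.7% of all probe sets, with a median of 0.31 beside 0.32 for all. In EE2-exposed epithelium it was 12 of 15, as for 77.8% of all, with a median of 0.64 beside 0.59. Of the 15 lower genes, 5 were again lower after BPA (30.3% of all probe sets) and 3 after EE2 (22.2%), with medians of 0.27 and 0.70. These counts stand close to the background. At an unadjusted p under 0.05, 1 of the higher genes was higher after BPA (2.06% of all probe sets), 2310057M21Rik with 2.17, and 3 were higher after EE2 (7.38%), Irs2 with 2.68, Cbwd1 with 1.84 and Rrp8 with 2.07. Of the lower genes, 1 was lower after BPA (0.441%), Pknox1 with −1.54, and 0 after EE2 (0.423%). Pknox1 and Gm34344 were higher in ERα(−/−) after EE2, by 2.02 and 3.34. The difference between the genotype effects was tested as an interaction, and 0 of 45101 probe sets passed for BPA or for EE2 (0%). The smallest adjusted p among the 30 genes was 1 for BPA and 0.298 for EE2. For each of the exposures 25 of the 30 had an unadjusted interaction p under 0.05. Of all probe sets, 3.47% had one for BPA and 6.01% for EE2. The genes were chosen by their vehicle values, which enter each interaction, so the choice itself raises the count of 25 and nothing is concluded from it. Each exposure had its own 3 arrays per genotype, so the vehicle arrays are shared only within the interaction.

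In the peri-ductal stroma of the same glands, 8 of the 15 higher genes were again higher in ERα(−/−) and 7 of the 15 lower again lower, beside 51.1% and 48.9% of all probe sets. None of the 30 passed there in the same direction at an unadjusted p under 0.05, when 2.18% of all probe sets were higher and 1.89% lower. Foxj3 had the largest stromal difference in the direction of the epithelium, with −2.81. Irs2 stood at −1.51 in the stroma and 5.11 in the epithelium. It had the smallest p of the 30 for the difference between the compartments within glands (limma adjusted p = 0.136), and 0 of all probe sets passed (0%). The vehicle epithelium values that chose the genes also enter this difference, so the choice itself lowers these p and nothing is concluded from them.

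**Figure D4:**
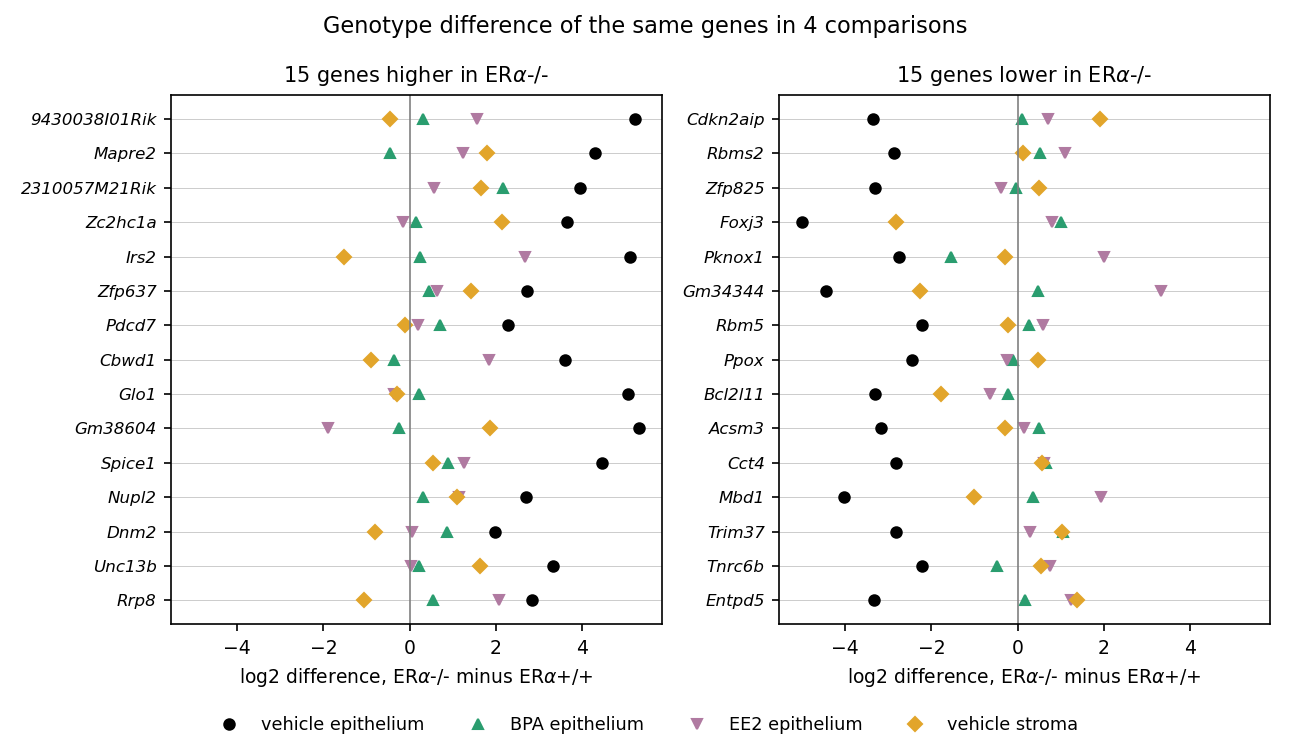
Log2 difference of ERα(−/−) minus ERα(+/+) for the 30 named genes in vehicle epithelium, BPA-exposed epithelium, EE2-exposed epithelium and vehicle stroma, each over 3 arrays per genotype. The vehicle epithelium values chose the genes and lie outermost in most rows. The other 3 comparisons lie on both sides of 0, and after EE2 the medians of the higher and the lower genes are 0.64 and 0.70, beside 0.59 for all probe sets.

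Few cell cycle, survival and metabolic genes passed before adjustment. Of all genes, 3.71% were higher and 1.77% lower before adjustment, and 3.99% were higher and 2.56% lower without overlap. Of 36 genes of S phase and mitosis, 2 were higher, E2f1, a regulator of entry into S phase, and Tpx2, a spindle protein, and 1 was lower, the checkpoint kinase gene Bub1. Tpx2 had 263, 208 and 231 in ERα(+/+) and 427, 578 and 852 in ERα(−/−) epithelium (log2 difference 1.35, standard error 0.56, limma adjusted p = 0.82), and Bub1 had 326, 187 and 317 against 82.7, 112 and 151 (−1.26, 0.51, 0.813). Neither overlapped between the genotypes, and the list's median was −0.03 beside 0.17 for all genes. In the list of 36, 2 genes were higher and 1 lower without overlap. Other probe sets gave 0.09 at the brightest for Tpx2 and 1.05 for Bub1. Each of the 3 genes passed in only 2 of the 6 fits with an array left out, in which the differences ranged from 1.11 to 2.11 for E2f1, from 1.10 to 1.59 for Tpx2 and from −1.52 to −1.05 for Bub1. Of 21 anti-apoptotic genes, 2 were higher before adjustment, Syvn1 and Birc2, both with overlap. Syvn1 was at 1.69, and at 0.83 without replicate 3 of ERα(−/−), where it did not pass. Birc2 was at 1.28, and at 0.66 without replicate 2 of ERα(+/+), 1.11 without replicate 2 and 1.22 without replicate 3 of ERα(−/−), where it did not pass. Of 23 pro-apoptotic genes none passed at the brightest probe sets. Among 30 immediate early and stress genes, 1 was lower before adjustment and 2 were lower without overlap. The heat shock gene Hspa1b was both, at 406, 387 and 575 against 64.8, 211 and 204 (−1.67, 0.68, 0.813), and its other 2 probe sets were higher. It did not pass without replicate 3 of ERα(+/+), at −1.49, or replicate 1 of ERα(−/−), at −1.11. Of 20 cholesterol synthesis genes, 2 were higher and 2 lower without overlap, and 1 passed before adjustment. That gene, Tm7sf2, a sterol reductase, was higher at 3.0, 2.8 and 6.0 against 12.1, 175 and 63.4 (3.79, 0.92, 0.477). Fdft1, the squalene synthase gene, had 5034, 4853 and 3679 against 2754, 2707 and 2930, lower without overlap by −0.68 (0.42, 0.88). Of its 3 other probe sets 1 was also lower, and the brightest was at 0.16. Genes of oxidative phosphorylation (47), ribosomal proteins (32), splicing (36) and the interferon response (24) gave none at an unadjusted p under 0.05, with medians of −0.04, 0.03, −0.02 and 0.22. Higher without overlap were 1 gene of oxidative phosphorylation and 1 of the interferon response. The quartiles of the ribosomal protein genes lay at −0.02 and 0.08.

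The medians of several marker lists of other tissues changed sign with the array left out. The median difference of adipocyte markers, relative to all genes, was 0.55 with all 6 arrays, −0.25 without replicate 2 of ERα(+/+) and 1.36 without its replicate 3. That of keratinised epidermis was −0.96, −1.22 and 0.26 in the same order, that of endothelium −0.03, −0.97 and 0.85, and that of leukocytes 0.16, −0.63 and 0.90. For epithelial markers it was 0.03, −0.07 and −0.24. Of the marker lists, at an unadjusted p under 0.05 (3.71% of all genes higher and 1.77% lower), epithelium had 2 of 40 lower (Trp63 and Itgb4), keratinised epidermis 2 of 21 lower (Flg and Hrnr, both with overlap), fibroblasts 1 of 29 lower (Twist2), erythroid cells 1 of 10 lower (Hba-a1), smooth muscle 1 of 14 lower (Cnn1) and leukocytes 1 of 26 higher (Itgam). Adipocyte, endothelial, skeletal muscle and Schwann cell markers had none. Hba-a1 kept its p with each array left out. Without replicate 3 of ERα(+/+), Flg went from −4.38 to −2.25, Hrnr from −3.61 to −2.79, Itgam from 2.33 to 1.54 and Twist2 from −1.50 to −1.44, and none of these passed. Without replicate 2 of ERα(+/+), Twist2 was at −0.96. Over all lists, 22 genes had an unadjusted p under 0.05, and 3 of them, Hba-a1, Lalba and Tm7sf2, kept it with each of the 6 arrays left out. Some genes stand in several lists, and the distinct genes measured were not counted. How many of all genes keep their p in this way was not counted either, so these counts have no share.

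**Figure D5:**
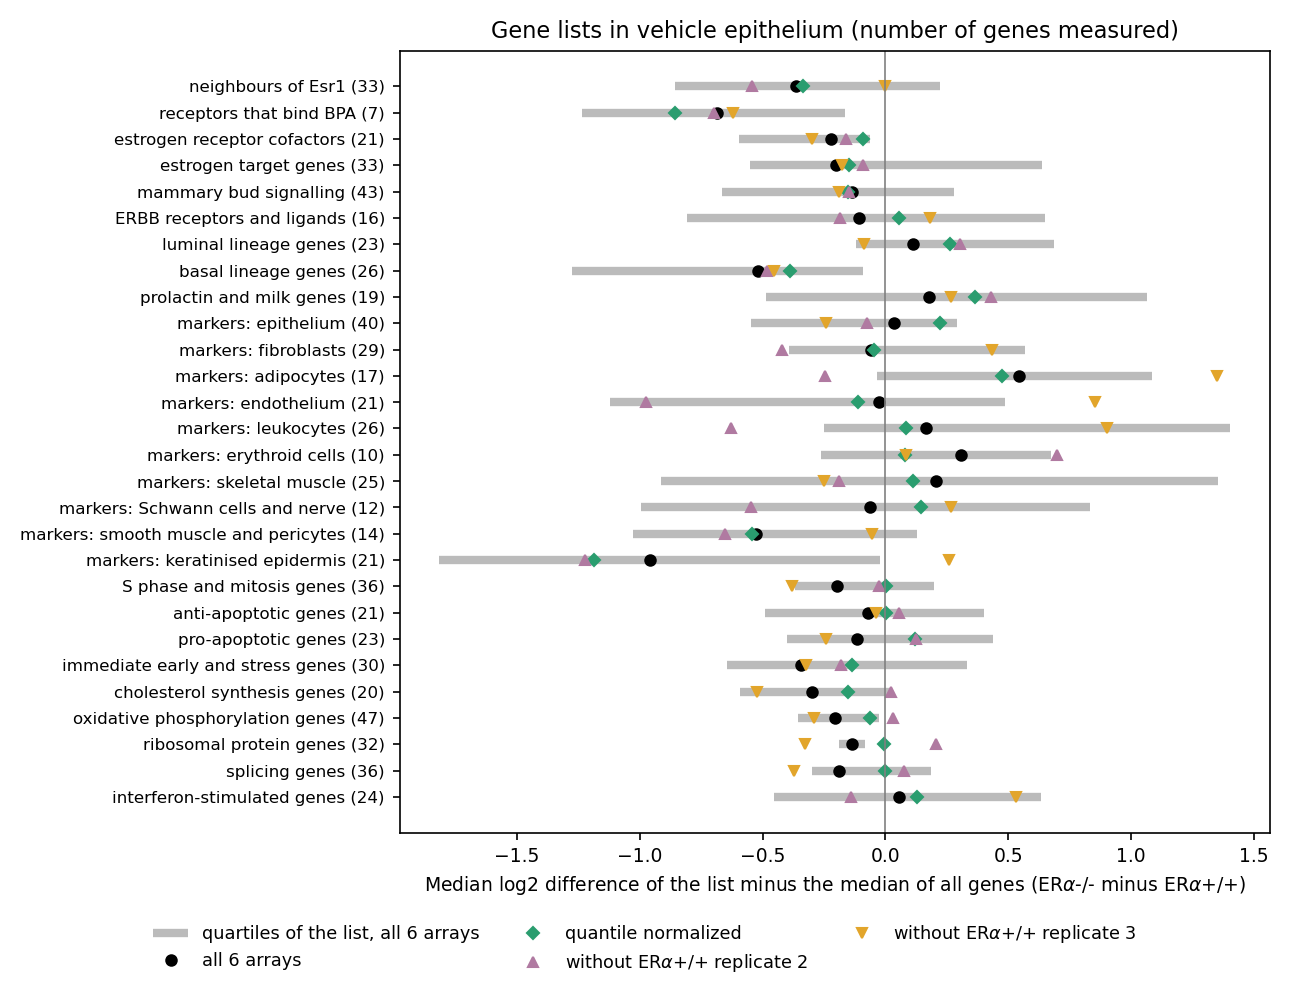
Median log2 difference, ERα(−/−) minus ERα(+/+), of each gene list minus the median of all genes, in vehicle epithelium. Black points use all 6 arrays with grey bars for the quartiles of the list, and coloured points show quantile normalization and the fits without replicate 2 or 3 of ERα(+/+). Basal lineage genes stay below 0 in all 4 settings (−0.52, −0.39, −0.48 and −0.45), as do 8 of the 28 lists in all, and adipocyte, endothelial, leukocyte and epidermal markers change sign with the array left out.

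Alleles close to a targeted locus can differ from those of the wild type strain, and the genes around Esr1 were listed as well. Esr1 lies on chromosome 10, at chr10:4611989-5005633 (GRCm38.p6), and 86 genes start within 5 Mb of its start. Of the 33 measured, 0 were higher and 1 was lower before adjustment (3.71% and 1.77% of all genes), Nup43, a nucleoporin gene, with 399, 511 and 113 in ERα(+/+) and 114, 127 and 58.1 in ERα(−/−) epithelium, with overlap (log2 difference −1.59, standard error 0.74, limma adjusted p = 0.844). Nup43 passed in 2 of the 6 fits with an array left out, with differences from −2.26 to −1.17, and its other probe set was higher (0.57). Zc3h12d alone was without overlap, higher in ERα(−/−) when 3.99% of all genes were, and it did not exceed 13.7. The list's median was −0.20 beside 0.17 for all genes, and without replicate 3 of ERα(+/+) it was 0.40 beside 0.40.

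Promoters of the 30 genes were searched for the palindromic estrogen response element GGTCANNNTGACC, on both strands, in the 300 bases around the start site that RefSeq gives (GRCm38.p6). A promoter was found for 22 of the genes, and 0 of their 27 promoters held the element, as 0.07% of all 32851 promoters did. The element is so rare that 27 promoters of any genes would seldom hold it, so nothing is concluded from the 0. A single arm of the palindrome, GGTCA or its reverse complement, was present in 6 of the 27 (22.2%), beside 40.5% of all promoters. Elements outside these windows were not searched.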

How the data were processed

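The intensity values deposited by the authors are linear signals per probe set, which the labels give as GCOS output. The methods describe RMA values on a log scale, but the deposited values are not logs, include 39 values of 0 and have array medians that differ, and the scaling before deposit is not given in the sources used here. A floor of 0.1 was set before log2. The 18 epithelium arrays in 6 groups were fitted with limma 3.58.1 in R 4.3.3, with Benjamini-Hochberg adjustment over 45101 probe sets. The vehicle stroma was fitted with its own compartment, and compartments were compared as differences within a gland. The step was tested on simulated arrays, in which the noise of a probe set had the same spread on every array. That test does not cover a dim array or an array with genes of other tissues. Arrays of a group come from different litters, and 3 arrays a group set the precision.

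Of the probe sets, 34958 had 1 symbol, 932 several and 9211 none. A gene of a list stands at its probe set with the highest mean over the 18 arrays. Named genes have 1 symbol, a mean of at least 100 in the higher group, no overlap, and, since fewer than 5 passed, the 15 smallest p with a log2 difference of at least 1 in each direction. Lists give up to 6 examples, first those that stood out and then well known members, the latter picked after their values were seen. Genes and lists were chosen with earlier results of these data known. Fold differences near the floor depend on it. With an offset of 16 those of the named genes range from 1.61 to 3.13 and from −3.37 to −1.64. Alternatives are given in the closing section.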

Additional observations from a re-analysis of the deposited data

How the results depend on the processing

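Genotype differences were recomputed under 16 alternatives. The number of probe sets with an adjusted p under 0.05, 0 in the reported fit, was 1 when only the 21987 probe sets with a mean of at least 50 were tested (1440726_at, with fewer tests to adjust for), ranged from 0 to 10 when each array was left out in turn, and was 0 otherwise, the methods' t-test after adjustment included. The number at an unadjusted p under 0.05, 2656, was 1275 with that filter, 1662 with array weights, 1370 with only the 6 arrays and 775 by the methods' t-test when a fold of 2 was also asked, and 2722 to 4205 with an array left out. The share of these that were higher in ERα(−/−), 65.2%, was 50% after quantile normalization, 50.9% after median centring, 47.1% with array weights, 52.9% after quantile normalization without the ERα(+/+) array of replicate 2 (added after seeing the data), and 29.1% to 80.5% with an array left out. The median difference of 0.175 was 0.0106, −0.041, −0.0747 and 0.0176 in the same order, 0.0624 with an offset of 16, and −0.251 to 0.395 with an array left out. The replicate number as a block gave 2589 probe sets at an unadjusted p under 0.05 and 0 after adjustment. The methods state that a litter gave 1 fetus of each genotype, but the labels do not tie the numbers to litters. Residual correlations of same-numbered arrays were 0.0173, −0.0296 and 0.0135 after vehicle and 0.0053 to 0.0944 after BPA or EE2 (positive in 6 of 6), below the 0.1 asked of every pair, so the block is an alternative only. Of 449 values of the 30 named genes under alternatives, 0 changed sign and 3 had an adjusted p under 0.05, namely 9430038I01Rik (0.0464), Mapre2 (0.0229) and Gm34344 (0.0481), each with 1 array left out. After quantile normalization 1 probe set (Dnaaf6) differed in its genotype effect between vehicle and EE2 epithelium, and 2 (Zfp759 and 1458288_at, which has no symbol) between vehicle epithelium and stroma, beside 0 in the reported fits. The cause was not tested.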
